A study of Homo sapiens with 6 samples.

Results

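The BCL2 family genes described here are 10 genes of the deposited table of 58825 genes, taken by name. They comprise the 3 pro-survival genes BCL2, BCL2L1 and MCL1 and 7 pro-death genes. The pro-death genes are the 2 pore-forming effectors BAX and BAK1 and the 5 BH3-only genes BID, BIK, PMAIP1, BCL2L11 and BBC3. All 10 were above the minimum level of 0.1 FPKM and are among the 19510 genes tested. FPKM counts fragments relative to transcript length and library size, so levels can be compared approximately between genes and between libraries. The tests used a further scaling factor for each library, from 0.985 to 1.02, that FPKM does not include.

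Poly(A) RNA was sequenced from HK-2 cells, an immortalized line of human kidney tubular epithelial cells. The 3 Control cultures are labelled untreated, with no time or vehicle given, and the 3 OX-LDL cultures received oxidized low-density lipoprotein at 25 µg/ml for 48 h. The study's methods describe low-serum starvation before OX-LDL and do not say whether the Control cultures had it. The labels do not say that the libraries came from separate experiments, so p-values measure the spread between these 6 libraries. HK-2 cells carry papillomavirus E6 and E7 genes.

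Proteins of the BCL2 family decide whether the outer mitochondrial membrane stays intact. When BAX and BAK1 are activated they form pores, cytochrome c leaves the mitochondria and caspases are switched on. BCL2, BCL2L1 (BCL-XL) and MCL1 hold the effectors in check, and the BH3-only proteins, which are induced or modified by stress, occupy the groove of the pro-survival proteins or activate the effectors. The mRNA of a family member does not give the amount or activity of its protein.

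The libraries held 62561347 to 76797607 deposited counts. Counts at multiples of 4 were in excess, from which about 4 counts were inferred for each read pair, although how the counts were made is not given in the sources used here. On that reading the detection floor of 3 read pairs lies at 12 counts. Mitochondrial genes took 5.25 to 5.69% of counts in every library. The epithelial genes KRT8 and KRT18 were expressed at 37.5 and 39.4 FPKM in Control. CDH2, which encodes N-cadherin and was listed as a tubular marker, had 37.7 FPKM in Control. The proximal tubule genes AQP1, CUBN and ANPEP reached at most 0.142 FPKM in any library, and LRP2 had 0 counts in all 6. KRT8 rose to 65.4 FPKM in OX-LDL (adjusted p = 0.0116, edgeR's quasi-likelihood test) and CDH2 to 45.1 FPKM (adjusted p = 0.0367), and the part of this in the results was not tested. The proximal tubule gene GGT1 differed from these and was expressed. It had 3.13, 18.2 and 3.88 FPKM in Control against 15.8, 17.7 and 16.1 in OX-LDL (adjusted p = 0.336, same test). GGT1 has 2 rows with overlapping coordinates in the table, so its level is uncertain. The loop of Henle gene UMOD had 0 counts, the podocyte gene NPHS1 had at most 12, and the endothelial and leukocyte genes PECAM1, VWF, PTPRC and CD3E reached at most 0.0918 FPKM. The lysosomal gene CD68, used as a macrophage marker, had a mean of 5.21 FPKM in Control against 10.8 in OX-LDL (adjusted p = 0.0858). In bulk RNA, fewer cells that express a gene and less RNA per cell cannot be told apart.

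The BH3 segment is the sequence that the members share, and it is the part of a pro-death protein that enters the groove of a pro-survival protein. The coding bases of this segment are shown for each member, 5′ to 3′ on the coding strand, with capitals for the codon of the conserved leucine and for the 2 codons of glycine (alanine in BBC3) and aspartate.
BCL2: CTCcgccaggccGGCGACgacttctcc
BCL2L1: CTGagggaggcaGGCGACgagtttgaa
MCL1: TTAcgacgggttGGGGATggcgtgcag
BAX: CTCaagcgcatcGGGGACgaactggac
BAK1: CTCgccatcatcGGGGACgacatcaac
BID: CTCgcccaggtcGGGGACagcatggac
BIK: CTGgcctgcatcGGGGACgagatggac
PMAIP1: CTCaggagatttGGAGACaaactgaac
BCL2L11: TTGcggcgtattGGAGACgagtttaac
BBC3: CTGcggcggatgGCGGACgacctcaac
Each run is 27 bases long and was read from GRCh38 through 1 GENCODE release 29 transcript per gene. All are in coding exons, at chr18:63318352-63318378 in BCL2, chr20:31721925-31721951 in BCL2L1, chr1:150578868-150578894 in MCL1, chr19:48955787-48955813 in BAX, chr6:33575390-33575416 in BAK1, chr22:17739418-17739444 in BID, chr22:43127716-43127742 in BIK, chr18:59902673-59902699 in PMAIP1, chr2:111150103-111150129 in BCL2L11 and chr19:47226582-47226608 in BBC3. The segment begins at codon 29 of 54 in PMAIP1, the shortest of these proteins, at codon 63 of 192 in BAX and at codon 213 of 350 in MCL1, the longest. The pattern was written from known BH3 cores, so its presence in the members is no finding, and 510 of 19659 coding genes (2.59%) hold a match. The leucine codon is of the form CTN in 8 members and begins with TT in MCL1 and BCL2L11. The aspartate codon is GAC in 9 members and GAT in MCL1.

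**Figure D1:**
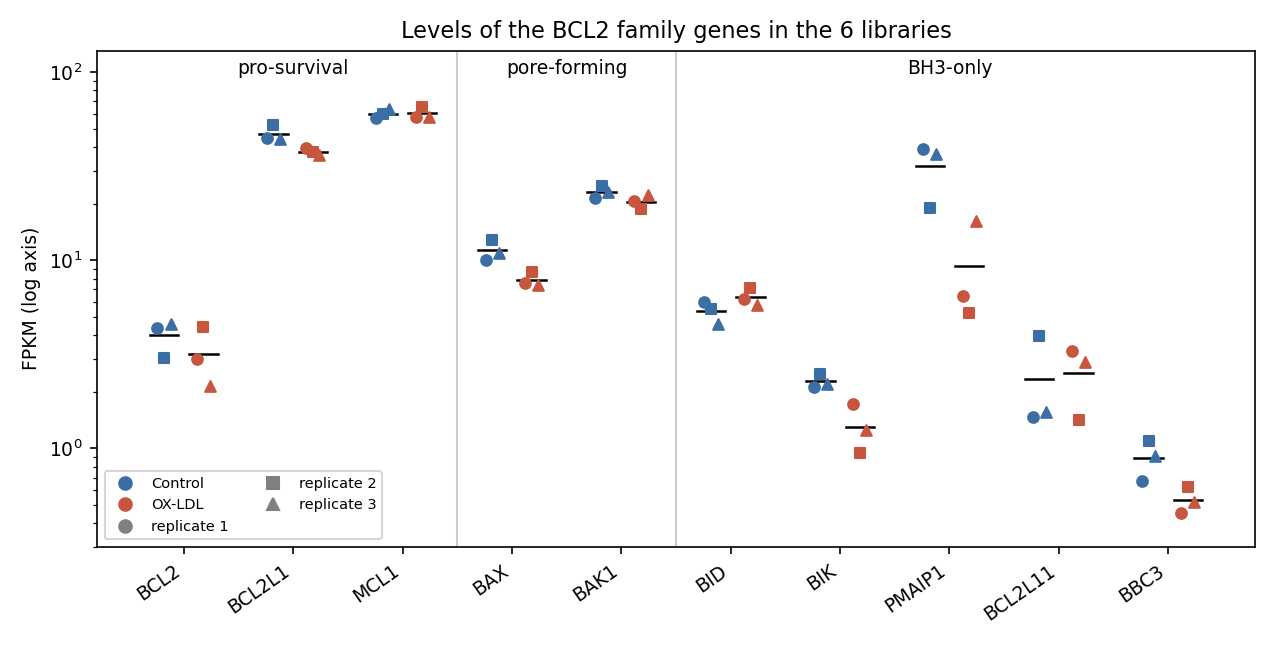
Levels of the 10 genes in each of the 6 libraries in FPKM on a log axis, with Control in blue, OX-LDL in red, the replicate number as the symbol and the group mean as a black line. MCL1 and BCL2L1 had the highest group means in both groups, PMAIP1 lay above BAK1 by group mean in Control and below it in OX-LDL, and the groups are apart in BCL2L1, BAX, BIK, PMAIP1 and BBC3.

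Of the 10 genes, 1 passed an adjusted p of 0.05 between OX-LDL and Control, the effector BAX, which fell. Over all genes tested this share was 15.3%, with 7.91% higher and 7.42% lower, and the count among the members is no higher than that. In 5 of the 10 genes, BCL2L1, BAX, BIK, PMAIP1 and BBC3, each OX-LDL library was below each Control library, where 20.5% of all genes tested were so and 37.2% were apart in either direction. No member had each OX-LDL library above each Control library, where 16.8% of all genes were so. The same 5 genes had an unadjusted p under 0.05, against 30.4% of all genes in either direction and 15.1% lower. The median log2 fold change of the 10 genes was -0.29, beside a median of -0.00432 over all genes tested, and 7 of the 10 values were below 0. The background depended on the libraries used. Of all genes, 2991 passed with all 6, 1796 without Control 1, 1161 without Control 2, 1993 without Control 3, 1262 without OX-LDL 1, 2943 without OX-LDL 2 and 1163 without OX-LDL 3.

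BAX (ENSG00000087088, chr19:48954815-48961798, plus strand) encodes the effector that moves from the cytosol to mitochondria when activated. Its levels were 10.1, 12.9 and 10.9 FPKM in Control 1 to 3 and 7.58, 8.61 and 7.43 FPKM in OX-LDL 1 to 3. The lowest Control library lay above the highest OX-LDL library, by a gap smaller than the range within Control. BAX fell from 11.3 ± 1.43 to 7.87 ± 0.646 FPKM (SD, n = 3 each), a log2 fold change of -0.48 with a standard error of 0.12 and a 95% confidence interval from -0.76 to -0.20 (adjusted p = 0.0373, edgeR's quasi-likelihood test with Benjamini-Hochberg adjustment over all genes tested). The call was kept without OX-LDL 2 (adjusted p = 0.0379) and lost without Control 1 (0.0519), Control 2 (0.111), Control 3 (0.0756), OX-LDL 1 (0.119) or OX-LDL 3 (0.126). Across these fits the log2 fold change stayed between -0.55 and -0.39. Over the other settings the adjusted p was 0.00455 to 0.0536, and the highest value, with no minimum level, missed the threshold. No gene of the annotation overlaps BAX.

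The sequence before the start site of BAX is shown because BAX was the only member called. It is the 250 bases of the plus strand of GRCh38.p14 from RefSeq, chr19:48954625-48954874, with capitals for each E-box (CACGTG, bound by MYC, MAX, USF and TFE proteins among others) and each GC box (GGGCGG, either strand).
BAX: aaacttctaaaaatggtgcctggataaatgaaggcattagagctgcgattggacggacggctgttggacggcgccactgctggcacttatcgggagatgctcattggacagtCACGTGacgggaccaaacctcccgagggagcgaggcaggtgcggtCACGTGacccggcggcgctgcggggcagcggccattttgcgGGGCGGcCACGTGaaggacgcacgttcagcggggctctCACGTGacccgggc
Counted from the start site, the 4 E-boxes begin at -138, -93, -45 and -14. An E-box was found in 7.26% of 35116 promoters of 300 bases (250 before the start site and 50 after it), and 5 promoters (0.0142%) held 4 or more. The E-box was added to the search after the BAX window had been seen, so this count describes the window and tests nothing. A match to a few letters is not evidence that a protein binds there.

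BAK1 (ENSG00000030110, chr6:33572547-33580293, minus strand), the effector that resides in the mitochondrial outer membrane, had a higher level than BAX in every library. Its levels were 21.6, 24.9 and 22.9 FPKM in Control against 20.8, 18.6 and 22.1 in OX-LDL. OX-LDL 3 lay above Control 1, so the groups overlapped. The mean was 23.1 ± 1.69 FPKM in Control against 20.5 ± 1.76 in OX-LDL, and the log2 fold change of -0.14 ± 0.09 (SE) had an interval from -0.36 to 0.08 (adjusted p = 0.363). It was -0.08 without OX-LDL 2 and -0.20 without OX-LDL 3. Unlike for BAX, this interval includes 0, but the difference between the fold changes of BAX and BAK1 was not tested.

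PMAIP1 (ENSG00000141682, chr18:59899948-59904306, plus strand) encodes NOXA, a BH3-only protein that binds MCL1 and is known as a target of the stress factor ATF4. Its levels were 39.3, 18.9 and 36.5 FPKM in Control against 6.48, 5.24 and 16.2 in OX-LDL. The groups did not overlap, but Control 2 and OX-LDL 3 came close to each other while the other 4 libraries lay far apart. The mean was 31.6 ± 11.0 FPKM in Control against 9.29 ± 5.98 in OX-LDL, the widest spread relative to the mean of the 5 genes whose groups were apart. The fitted level in OX-LDL was 0.301 of that in Control, and the log2 fold change of -1.73 ± 0.48 (SE), with an interval from -2.88 to -0.59, was the largest in size among the 10 genes. It missed the threshold over all genes (adjusted p = 0.0560). Over 9 other settings the adjusted p was 0.0233 to 0.0664 and passed in 6 of them, among them DESeq2 (0.0233) and limma on log2(FPKM + 0.1) (0.0450). Without OX-LDL 3 the adjusted p was 0.0258 and the log2 fold change -2.40. Leaving out any other library gave an adjusted p of 0.0696 to 0.158. No gene of the annotation overlaps PMAIP1.

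The 250 bases before the start site of PMAIP1 (chr18:59899746-59899995, plus strand, GRCh38.p14, RefSeq) are shown because PMAIP1 had the largest difference, with capitals for each GC box on either strand.
PMAIP1: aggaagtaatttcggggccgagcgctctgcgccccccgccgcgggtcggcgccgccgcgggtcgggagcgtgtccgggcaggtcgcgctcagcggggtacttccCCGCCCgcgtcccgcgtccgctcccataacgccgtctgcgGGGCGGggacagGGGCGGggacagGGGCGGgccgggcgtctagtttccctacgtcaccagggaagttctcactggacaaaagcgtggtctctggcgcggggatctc
The 4 GC boxes, sites of the SP1 family, begin at -146, -106, -94 and -82, and 9.06% of all promoters held 4 or more of them. A GC box was found in 45.0% of promoters. The full 300 bases held no match to the cyclic AMP response element (TGACGTCA, 1.85% of promoters), the C/EBP-ATF composite element (TGATGNAA, 3.62%), the AP-1 site (TGANTCA, 7.71%) or the E2F site (TTTCCCGC, 1.63%), each searched on both strands. Only these letters were searched, with N for any base, so variant or partial forms of a site were not counted. For the other members, a promoter was given for BCL2, BCL2L1, BAK1, BID, BCL2L11 and BBC3, and none for MCL1 and BIK. The AP-1 site was found in the promoter of BBC3, at -113, and in that of no other member.

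BIK (ENSG00000100290, chr22:43110750-43129712, plus strand), a BH3-only protein of the endoplasmic reticulum, had 2.12, 2.49 and 2.20 FPKM in Control against 1.72, 0.946 and 1.25 in OX-LDL. The highest OX-LDL library was below the lowest Control library. These levels rest on 82 to 212 deposited counts, which is few read pairs. The log2 fold change was -0.77 ± 0.27 (SE), with an interval from -1.42 to -0.12 (adjusted p = 0.111), and it remained between -1.0 and -0.58 when any 1 library was left out.

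BBC3 (ENSG00000105327, chr19:47220822-47232766, minus strand) encodes PUMA, which binds all pro-survival proteins of the family. It had the lowest level of the 10 genes, with 0.669, 1.09 and 0.914 FPKM in Control against 0.452, 0.625 and 0.519 in OX-LDL. Each OX-LDL library was below each Control library, by a narrow margin between OX-LDL 2 and Control 1. The values rest on 108 to 311 deposited counts. The fit gave a log2 fold change of -0.70 ± 0.25 (SE), with an interval from -1.30 to -0.10 (adjusted p = 0.114).

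BID (ENSG00000015475, chr22:17734138-17774770, minus strand) links caspase 8 to the mitochondria once it is cleaved. It had 6.0, 5.54 and 4.57 FPKM in Control against 6.20, 7.14 and 5.80 in OX-LDL. Only OX-LDL 3 and Control 1 crossed. Its log2 fold change of 0.28 ± 0.14 (SE) had an interval from -0.04 to 0.60 (adjusted p = 0.223), and leaving out 1 library gave 0.18 (without Control 3) to 0.38 (without Control 1).

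BCL2L11 (ENSG00000153094, chr2:111119378-111168445, plus strand) encodes BIM, which binds all pro-survival proteins and activates BAX and BAK1. It had 1.47, 3.97 and 1.56 FPKM in Control against 3.29, 1.41 and 2.89 in OX-LDL. Control 2 was the highest of all libraries and OX-LDL 2 the lowest, so that the spread within each group was larger than the difference between them. The log2 fold change was 0.16 ± 0.46 (SE), with an interval from -0.93 to 1.24 (adjusted p = 0.861), and it was below 0 without Control 1 (-0.08), without Control 3 (-0.06) or without OX-LDL 1 (-0.07). BCL2L11 overlaps the non-coding gene MIR4435-2HG on the other strand, which had 1854 to 3064 counts, more than BCL2L11 in each library. The kit marks strand, but whether the counting used it is not given in the sources used here.

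MCL1 (ENSG00000143384, chr1:150574551-150579738, minus strand), a short-lived pro-survival protein that is bound by NOXA, was the most abundant of the 10 mRNAs. It had 57.2, 59.6 and 63.6 FPKM in Control against 57.9, 65.4 and 57.8 in OX-LDL. The groups covered nearly the same range. Its fitted log2 fold change was 0.04 ± 0.08 (SE), with an interval from -0.15 to 0.22 (adjusted p = 0.802), the narrowest interval of the 10 genes. Its sign turned without OX-LDL 2 (-0.02).

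BCL2L1 (ENSG00000171552, chr20:31664452-31723989, minus strand), which encodes BCL-XL, had 44.7, 52.1 and 44.4 FPKM in Control against 39.6, 37.7 and 36.2 in OX-LDL. All OX-LDL libraries lay below all Control libraries, and Control 2 stood above the rest. The mean was 47.1 ± 4.37 FPKM in Control against 37.8 ± 1.69 in OX-LDL. The log2 fold change was -0.28 ± 0.08 (SE), with an interval from -0.47 to -0.09, and missed the threshold (adjusted p = 0.0598). With DESeq2 it passed (adjusted p = 0.0370), the only one of 9 other settings in which it did. The non-coding gene ABALON overlaps BCL2L1 on the other strand and had 1017, 1097 and 692 counts in Control and 330, 745 and 609 in OX-LDL, against 9682 to 15418 for BCL2L1.

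BCL2 (ENSG00000171791, chr18:63123346-63320128, minus strand), which gave the family its name, was the least abundant of the pro-survival mRNAs. It had 4.35, 3.02 and 4.6 FPKM in Control against 2.99, 4.42 and 2.14 in OX-LDL. OX-LDL 2 lay above Control 1 and Control 2, so the groups overlapped widely. The log2 fold change was -0.30 ± 0.28 (SE), with an interval from -0.97 to 0.37 (adjusted p = 0.539). It was -0.08 without OX-LDL 3 and -0.61 without OX-LDL 2 (adjusted p = 0.886 and 0.142).

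**Figure D2:**
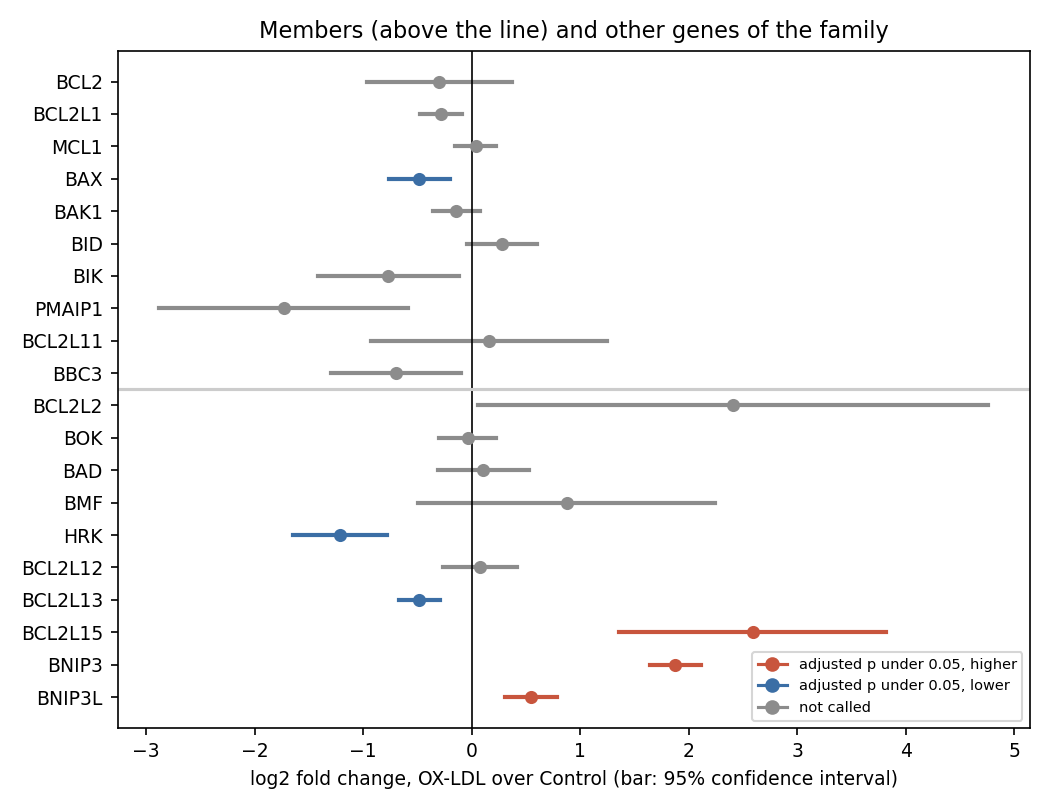
Log2 fold change of OX-LDL over Control with its 95% confidence interval from edgeR's quasi-likelihood fit, for the 10 genes above the grey line and 10 other tested genes of the family below it. Blue and red mark genes with an adjusted p under 0.05 that were lower or higher in OX-LDL, and grey marks the others. BAX is the only coloured gene above the line, and BNIP3 stands furthest from 0 relative to its interval.

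The pro-survival and pro-death members were then compared. The median log2 fold change was -0.28 over the 3 pro-survival genes and -0.48 over the 7 pro-death genes, a difference of -0.20. It was -0.31 over the 2 effectors and -0.70 over the 5 BH3-only genes. The members are not replicates, so this difference carries no test. The same difference was also taken from the FPKM of each OX-LDL library over the Control mean. Its SD over the 3 OX-LDL libraries was 0.260, larger in size than -0.20. This SD is of single libraries and leaves out the spread within Control, so it is not the error of the fitted difference. The fitted difference was below 0 in every alternative fit, from -0.37 without OX-LDL 3 to -0.02 with limma on log2(FPKM + 1).

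On the level scale, the summed pro-death FPKM was 81.2, 69.8 and 79.6 in Control and 46.5, 42.6 and 56.2 in OX-LDL. The groups did not overlap, and the means were 76.9 ± 6.15 and 48.4 ± 6.99 (SD, n = 3 each). The summed pro-survival FPKM was 106, 115 and 113 in Control and 100.4, 108 and 96.1 in OX-LDL, and these ranges overlapped. The ratio of the pro-death to the pro-survival sum was 0.763, 0.608 and 0.707 in Control and 0.463, 0.396 and 0.584 in OX-LDL. Each OX-LDL ratio was below each Control ratio, with means of 0.693 ± 0.0786 and 0.481 ± 0.0954. With 3 libraries against 3, an exact permutation test cannot go below 0.1, and none is given for this score over the members.

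The difference in this ratio rested on PMAIP1. PMAIP1 made up 40.5% of the pro-death FPKM in Control and 18.3% in OX-LDL. Without it the ratio was 0.407 ± 0.0322 in Control and 0.387 ± 0.0356 in OX-LDL, the groups overlapped, and the difference shrank from -0.212 to -0.0192. Without MCL1 the difference was -0.325 and the groups overlapped too. The ratio of PMAIP1 to MCL1, the BH3-only mRNA and the mRNA of its partner, was 0.526 ± 0.189 in Control and 0.157 ± 0.107 in OX-LDL, with no overlap. The ratio of BAX to BCL2 was 2.98 ± 1.10 in Control and 2.66 ± 0.769 in OX-LDL, and that of BAX to BCL2L1 was 0.239 ± 0.0120 and 0.208 ± 0.0186. Both of these overlapped between the groups, so the fall of BAX was not accompanied by a separation of the groups in either ratio.

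**Figure D3:**
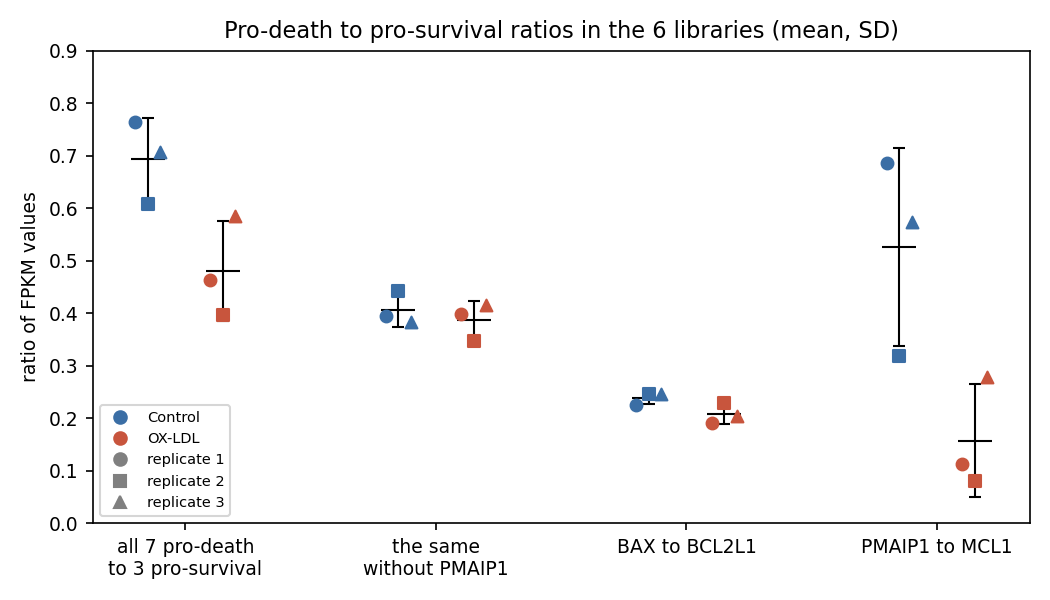
Ratios of FPKM values in each of the 6 libraries, with Control in blue, OX-LDL in red, the replicate number as the symbol, and the mean and SD (n = 3) in black. The groups are apart in the ratio of all 7 pro-death to the 3 pro-survival genes and in that of PMAIP1 to MCL1, and they overlap once PMAIP1 is left out (0.407 and 0.387) and in BAX to BCL2L1.

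**Figure D4:**
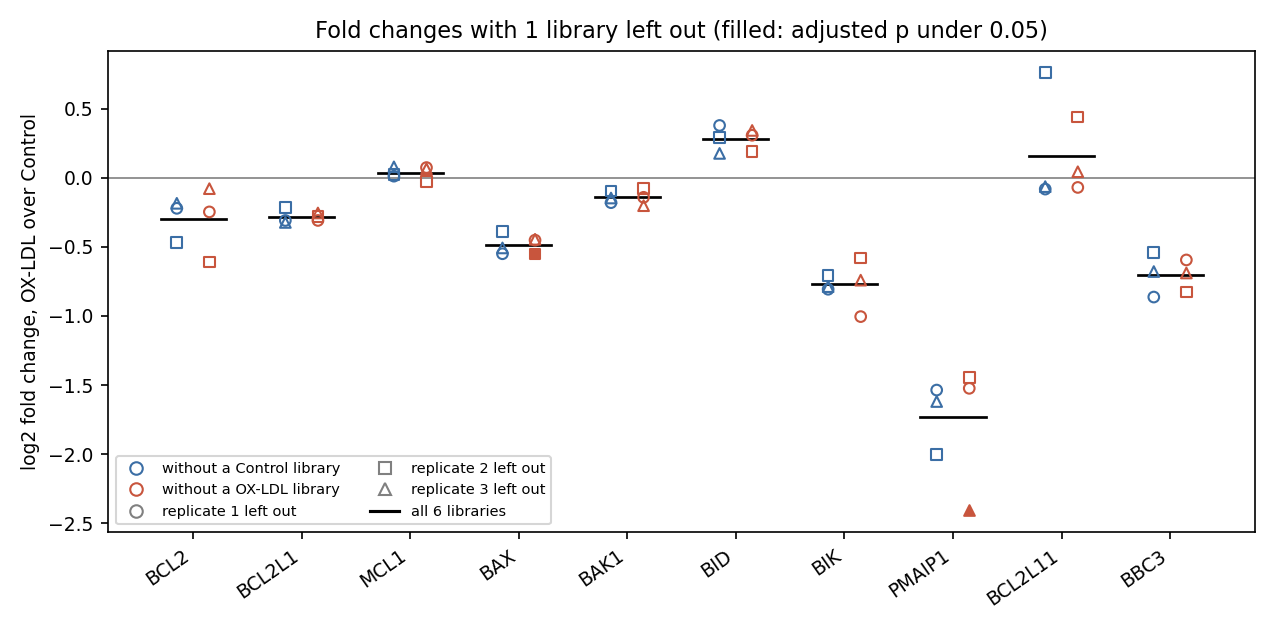
Log2 fold change of the 10 genes with each library left out in turn, blue for a Control and red for an OX-LDL library, with the symbol giving its replicate number, a filled symbol for an adjusted p under 0.05 and a black line for the fit with all 6 libraries. Only BAX without OX-LDL 2 and PMAIP1 without OX-LDL 3 are filled, and only BCL2L11 and MCL1 cross 0.

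A list of 13 other genes of the family was read beside the members. Of these, 10 were tested, 3 rose and 2 fell, and their median log2 fold change was 0.33. The share called was 50%, against 15.3% of all genes tested. BNIP3, a mitochondrial BH3-domain protein of mitophagy and a known target of hypoxia signalling, rose in all 3 libraries. It had 17.6, 14.8 and 15.6 FPKM in Control against 55.2, 55.8 and 61.4 in OX-LDL, and its log2 fold change was 1.88 ± 0.10 (SE; adjusted p = 0.000365). Its relative BNIP3L, also a mitophagy receptor, rose from 29.8 ± 2.44 to 42.6 ± 3.65 FPKM (adjusted p = 0.0163), a call lost without Control 2 (0.0647) or OX-LDL 3 (0.0611). HRK, a BH3-only gene best known from neurons, fell from 2.26 ± 0.242 to 0.95 ± 0.201 FPKM (log2 fold change -1.22, adjusted p = 0.00900). BCL2L13, another mitochondrial family protein with a role in mitophagy, fell from 14.7 ± 0.234 to 10.2 ± 0.762 FPKM (adjusted p = 0.0117). BCL2L15 rose at a very low level, from 0.0402 to 0.244 FPKM (adjusted p = 0.0206), on 14 to 251 counts, and its call was lost without Control 1 (0.0678), OX-LDL 1 (0.0662) or OX-LDL 3 (0.0709) and with limma on log2(FPKM + 1) (0.0512).

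Among the other family genes that were not called, BCL2L2 (BCL-W) had at most 0.615 FPKM in 5 libraries and 6.39 FPKM in OX-LDL 3, where its counts were 2425. It overlaps the read-through gene BCL2L2-PABPN1 on the same strand, which had 694 and 574 counts in Control 1 and OX-LDL 1 and 32 to 87 elsewhere, so the sharing of reads between them is uncertain. BCL2A1 and BCL2L14 were at or under 12 counts in every library. BCL2L10 had 11, 4 and 16 counts in Control and 0 in every OX-LDL library, and no fold is given since both groups are near the floor.

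The mitochondrial death pathway downstream of the members was represented by 16 genes, all tested, of which 6 rose and 1 fell, with a median log2 fold change of 0.27. The share called was 43.8%, against 15.3% of all genes tested. CYCS, cytochrome c, rose from 40.1 ± 2.21 to 52.8 ± 2.63 FPKM (adjusted p = 0.0106). APAF1, the scaffold that cytochrome c assembles into the apoptosome, rose from 5.09 ± 0.218 to 8.73 ± 0.590 FPKM (log2 fold change 0.81, adjusted p = 0.00291). VDAC3, a channel of the outer membrane, rose by a log2 fold change of 0.50 (adjusted p = 0.00668), and PARP1, a caspase substrate, by 0.47 (adjusted p = 0.0117). HTRA2, a mitochondrial protease that antagonizes inhibitor of apoptosis proteins, fell from 9.35 ± 1.29 to 5.55 ± 0.901 FPKM (adjusted p = 0.0248). HTRA2 overlaps AUP1 on the other strand, which had more counts than HTRA2 in each library. AUP1 had 4776, 5768 and 5007 counts in Control and 3776, 4914 and 3936 in OX-LDL. Whether reads of AUP1 were counted in HTRA2 was not tested. The calls of CYCS, APAF1, VDAC3 and PARP1 were kept whichever library was left out. The call of HTRA2 was lost without Control 1 (0.0586), Control 2 (0.0820), OX-LDL 1 (0.0873) or OX-LDL 3 (0.0889). VDAC1, the main channel of the outer membrane, is named after its values were seen. VDAC1 rose from 50.4 ± 2.72 to 61.9 ± 1.6 FPKM (adjusted p = 0.0275), a call lost without Control 1 (0.0694), Control 2 (0.0853), OX-LDL 1 (0.0652) or OX-LDL 3 (0.0965).

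Of the 7 inhibitor of apoptosis genes, BIRC5 (survivin), which is also a mitotic gene, was the only one called, with 4.5 ± 0.517 FPKM in Control against 6.86 ± 0.644 in OX-LDL (log2 fold change 0.64, adjusted p = 0.0194). Its call was lost without Control 1 (0.0576), Control 2 (0.0626), OX-LDL 1 (0.0683) or OX-LDL 3 (0.0666). Of 6 genes on the turnover of MCL1 protein, 1 rose and none fell at this threshold. CDC20, a mitotic activator of the anaphase-promoting complex, was higher in OX-LDL (log2 fold change 0.89, adjusted p = 0.00750). Of 12 tested death receptor genes, 2 fell and none rose, with a median of -0.02. The shares called, 14.3% of the inhibitor of apoptosis genes and 16.7% of each of the other 2 lists, were near the 15.3% over all genes tested. TNFRSF10B, the TRAIL receptor DR5 and a known target of DDIT3, fell from 29.6 ± 4.23 to 16.8 ± 0.399 FPKM (log2 fold change -0.78, adjusted p = 0.00686). FADD, the adaptor of the receptors, fell by 0.45 on the log2 scale (adjusted p = 0.0495) and passed in 1 of the 6 fits that leave out a library, the one without Control 1 (0.0324). The other 5 gave 0.0820 without OX-LDL 2, 0.110 without Control 3, 0.136 without Control 2, 0.139 without OX-LDL 1 and 0.150 without OX-LDL 3. Over 9 other settings FADD passed in 4, with an adjusted p of 0.0115 to 0.0789.

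Of the transcription factors and other regulators known to act on BCL2 family genes, 11 were tested, 6 fell and 1 rose, and their median log2 fold change of -0.59 was the lowest of the lists. The share called was 63.6%, against 15.3% of all genes tested. DDIT3 (CHOP), a stress factor reported to act on BCL2L11 and BBC3, had 55.9, 123 and 76.6 FPKM in Control against 11.9, 17.6 and 10.4 in OX-LDL, and its log2 fold change was -2.64 ± 0.33 (SE; adjusted p = 0.00515). It overlaps MARS and MBD6 on the other strand, and both were lower in OX-LDL too. MARS had 23144, 25378 and 20899 counts in Control and 8147, 8969 and 9430 in OX-LDL, more than DDIT3 in each library. MBD6 had 4088, 4455 and 3641 counts in Control and 1213, 1898 and 1698 in OX-LDL. Whether reads of these genes were counted in DDIT3 was not tested. TRIB3, a pseudokinase induced by ATF4 and DDIT3, fell from 62.1 ± 12.5 to 11.6 ± 3.23 FPKM (log2 fold change -2.39, adjusted p = 0.00237). ATF4, the upstream factor of both, had 144, 146 and 151 FPKM in Control against 96.5, 88.3 and 103 in OX-LDL, and its log2 fold change was -0.59 (adjusted p = 0.00526). JUN fell by 1.03 (adjusted p = 0.00432) and HIF1A, the hypoxia factor that acts on BNIP3, by 0.82 (adjusted p = 0.0113) on the log2 scale. These 5 calls were kept whichever library was left out. The other 2 calls of the list were E2F1, which fell by 0.64 on the log2 scale (adjusted p = 0.0416) and passed without OX-LDL 2 but not without any other library (0.0717 to 0.128), and STAT3, which rose by 0.45 (adjusted p = 0.0114). E2F1 and STAT3 are named after their values were seen. How far the levels of these regulators bear on those of the members was not tested.

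Of the 62 tested genes of the 6 lists beside the members, 23 (37.1%) passed the threshold with all libraries, against 15.3% of all genes tested. Without OX-LDL 3 these were 15 genes (24.2%) against 5.96%. The lists were chosen with earlier results known, so these shares are a description. Their medians ran from -0.59 for the regulators to 0.33 for the other family genes, beside -0.00432 for all genes tested. The medians of the pro-survival members (-0.28), the pro-death members (-0.48), the inhibitor of apoptosis genes (-0.15) and the regulators were below 0 and that of the mitochondrial death pathway was above it, with no test between the lists.

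**Figure D5:**
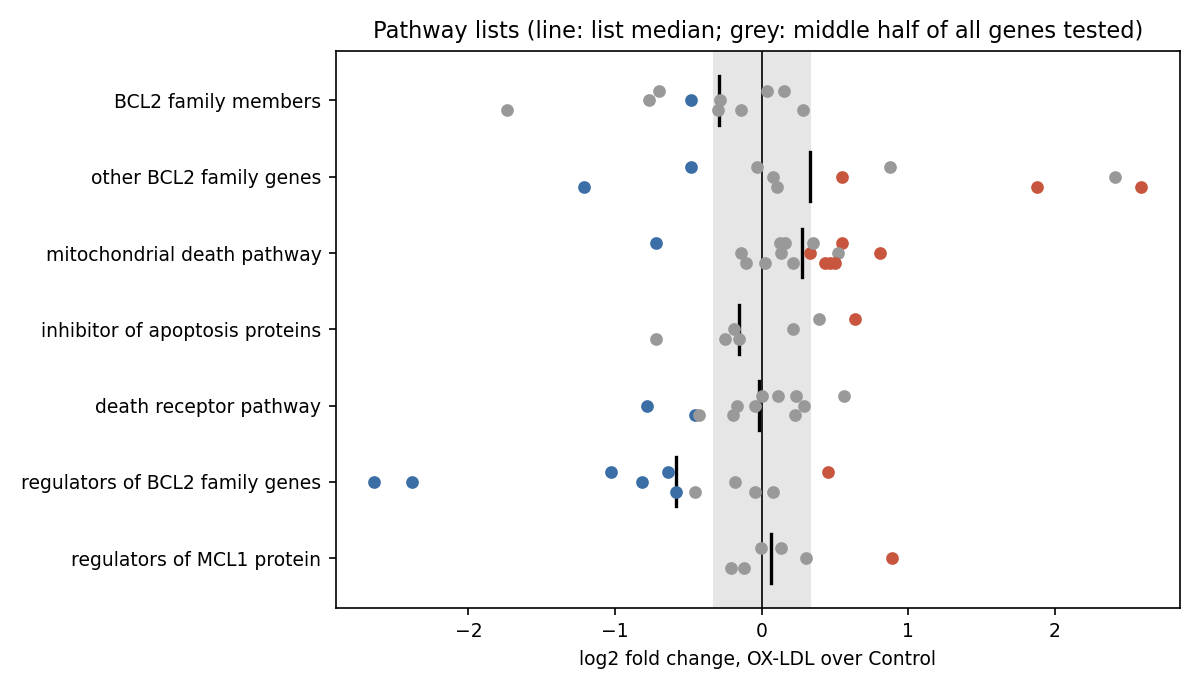
Log2 fold change of OX-LDL over Control for each tested gene of the members and of 6 further lists, with red and blue for an adjusted p under 0.05 and higher or lower, grey for the others, a black line at each list's median and a grey band over the interquartile range of all genes tested. The regulators have the lowest median (-0.59) and the other family genes the highest (0.33).

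The genes most like BAX, PMAIP1 and BCL2L1 over the 6 libraries were found by Pearson's correlation of log2(FPKM + 0.1) among the 12258 genes whose mean reached 1 FPKM. For BAX these were GABARAP (r = 0.999), ADCK2 (0.996) and C1QBP (0.995), and 427 genes reached 0.95. For PMAIP1 these were ZMYND8 (r = 0.997), IFT81 (0.994) and DSC2 (0.992), and 44 genes reached 0.95. For BCL2L1 these were MANBAL (r = 0.998), HINFP (0.996) and CLGN (0.995), and 226 genes reached 0.95. The 6 points share the division into 2 groups, and the best of so many genes is high by selection, so these values are a description only. The likeness is one of order and not of size: ZMYND8 had 14.0, 13.6 and 13.9 FPKM in Control against 12.9, 12.8 and 13.4 in OX-LDL, a far smaller difference than that of PMAIP1.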

How the data were processed

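The 6 RNA-seq libraries, 3 Control and 3 OX-LDL, were grouped by the labels. The authors deposited 1 table of 58825 genes with an estimated count per gene and library, not scaled for library size, and FPKM values that the authors scaled for transcript length and library size. The submitters' processing notes name cutadapt 1.9, HISAT2 2.0.4, StringTie 1.3.4d, edgeR, DESeq2 and GRCh38. The annotation and the use of strand in counting are not given in the sources used here. All columns of per-sample values were used.

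The deposited estimated counts are whole numbers and were not rounded. They were fitted with edgeR 4.0.16 (R 4.3.3) with TMM factors, glmQLFit and glmQLFTest, with no term but the group. The 19510 genes whose mean reached 0.1 FPKM were tested. P-values were adjusted by Benjamini-Hochberg over all of these, with a threshold of 0.05. Intervals cover 95% and standard errors come from the quasi-likelihood F. A count of 0 is listed by the authors at a small positive FPKM and is given here as 0. The fits were tested on simulated data.

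The chi-square between libraries of a group was 14.9 to 25.6 per gene, so none was deposited more than once. Counts of 4, 8 and 12 occurred 3.26, 2.95 and 2.13 times as often as their neighbours, from which 4 counts per read pair were inferred. The text names all 10 members, at most 5 genes per list with the smallest p among those passing the threshold, family genes at the detection floor, and the 3 genes most like the member of each role with the smallest p. The members, lists and rule were chosen with earlier results of these data known. Some genes of the lists are counted but not reported here by name. DIABLO has 2 rows, of which the one with the higher mean FPKM was used. Alternatives were DESeq2 1.42.0, limma 3.58.1 with pseudocounts of 0.1 and 1, other scaling factors, other minimum levels, counts divided by 4, a block for the replicate number, leaving out each library, and ratios without 1 member.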

Additional observations from a re-analysis of the deposited data

How the results depend on the processing

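The members called were 1 with all libraries, BAX. They were 3 with DESeq2 and 0 with no minimum level, where 4430 and 2321 of all genes were called. With a minimum of 1 FPKM, limma on log2(FPKM + 0.1) or log2(FPKM + 1), or counts divided by 4, they were 2. In these fits 2914 to 3152 of all genes were called. Leaving out 1 library gave 0 to 1. Of all genes, 2991 were called, and 1161 to 2943 with 1 library left out. The pathway genes called were 23, and 15 to 23 with 1 library left out. The pro-death to pro-survival ratio differed by -0.212, by -0.169 to -0.263 with 1 library left out, by -0.325 without MCL1 and by -0.0192 without PMAIP1, an alternative chosen after seeing the data. With 1 library left out, the log2 fold change was -0.0820 to 0.761 for BCL2L11 and -0.0248 to 0.0790 for MCL1. It turned below 0 for BCL2L11 without Control 1 (-0.0820), Control 3 (-0.0641) or OX-LDL 1 (-0.0700) and for MCL1 without OX-LDL 2 (-0.0248). The causes were not tested. Apart from the replicate block and leaving out a library, the alternatives for the counts of all genes and of pathway genes stayed within 1.5 times. The count of members did not. The median of all genes was between -0.0331 and 0.0179 under other scaling factors or tools, and 0.0216 with no minimum level.

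With a replicate block, 1636 genes and 2 members were called, and BNIP3L, BCL2L15, VDAC1 and FADD missed the threshold (adjusted p = 0.0616 to 0.0789). Over all genes, libraries with the same number did not deviate together (correlations of -0.0410, -0.00313 and 0.0356). The numbers thus gave no sign of pairing over all genes, but effects shared by some genes only were not tested. With fewer than 3 read pairs, as in BCL2A1 and BCL2L14, a gene cannot be compared at this depth, and BIK and BBC3 rest on at most 311 counts. Without counts of molecules, precision from depth covers counting error only.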

Other observations

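A few genes of the lists that are no members showed large jumps within a group, and they are named after their values were seen. MYC, one of the regulators, had 0.986, 24.7 and 1.26 FPKM in Control against 16.1, 6.04 and 0.978 in OX-LDL. XIAP, an inhibitor of caspases, had 2.54, 13 and 3.28 FPKM in Control against 5.51, 3.43 and 2.21 in OX-LDL. BMF, a BH3-only gene, had 1.19, 1.01 and 1.6 FPKM in Control against 2.74, 0.588 and 3.49 in OX-LDL. In XIAP the odd library was Control 2, and in BMF the OX-LDL libraries lay on both sides of Control. None of these genes passed the threshold (adjusted p = 0.948 for MYC, 0.513 for XIAP and 0.366 for BMF, edgeR's quasi-likelihood test). The cause of the jumps was not tested.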
